A study of Arabidopsis thaliana with 2 samples.

Results

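The plastid-encoded genes are the genes carried by the chloroplast's own small genome. Members were the array's probe sets that the platform annotation assigns to exactly 1 gene whose entry in the TAIR10.1 gene table lies on the plastid genome. The rule found 69 probe sets for 69 protein-coding genes, out of 13356 genes with such a probe set, 22746 Arabidopsis probe sets on the array and 78 plastid protein-coding symbols in the gene table. All 69 passed the filter on low signals described with the first values. A further 8 probe sets are assigned to both copies of a plastid gene and were not members.

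The samples were total RNA from young Arabidopsis thaliana leaves, with 1 array for BOUNTIFUL and 1 for Ws-0. Ws-0 is a wild-type accession. The BOUNTIFUL line has Ws-0 as its genetic background and carries the activation tag I/dSpm, an insert, in BOU, and the series title calls it a gain of function mutant. Both samples mixed the 4 youngest rosette leaves at developmental stage 6.50, from glasshouse plants on compost at 23 °C with 16 h of light a day. The comparison asks which transcripts differ in abundance in the mutant. The number of plants in each mixture is not given in the labels, and no plant outside these mixtures was measured, so no spread between plants can be estimated and no difference below was tested.

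The plastid genome encodes the core subunits of the photosynthetic complexes, the large subunit of Rubisco, most subunits of 1 RNA polymerase and part of the plastid ribosome, while the nucleus encodes the remaining subunits. Its genes are read by a plastid-encoded polymerase of bacterial type, which takes its promoter specificity from nuclear sigma factors, and by a nuclear-encoded polymerase of phage type. Photosynthesis genes are mainly read by the first, and accD, ycf2 and the rpoB operon by the second. Most plastid genes lie in operons whose long transcripts are cut into shorter RNAs. Plastid RNAs mostly lack a long poly(A) tail, and the labelling protocol primed cDNA with oligo(dT). How far priming bears on the signals was not tested.

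Each probe set gives a brightness, in MAS5 signal units, on each array for the RNA it matches, which for an operon can be several transcripts. Log2 ratios are BOUNTIFUL minus Ws-0 of log2(signal + 7.77), and folds are on that scale, which slightly understates differences of low signals. The filter kept the 11373 probe sets whose mean signal over both arrays was at least 39.9 units. Member signals ran from 50.6 to 4934 units, and all 69 members lay above every Bacillus subtilis control probe set on both arrays, whose maximum was 21.9 units for BOUNTIFUL and 16.7 for Ws-0. The arrays had been scaled to a common level, with median signals of 38.9 and 39.0 units. Spike transcripts, which are put into the hybridisation mix, were nevertheless lower on the BOUNTIFUL array, by a mean log2 ratio of -0.35 over 9 newer probe sets (SD over probe sets 0.080) and -0.55 over 9 older ones (SD 0.18). The median log2 ratio of all probe sets above the filter was -0.06 as deposited, 0.27 once the newer spikes were made equal on both arrays and 0.45 once the older ones were. Because of this, the sign of a small log2 ratio depends on the scaling, and values are also given relative to that median. For scale, 33 genes elsewhere on the array were read by a pair of probe sets above the filter, and the log2 ratios of a pair differed by a median of 0.21 and by over 0.5 in 4 pairs. The leaf marker with a named probe set, RCA (Rubisco activase), had 3587 units in BOUNTIFUL and 4492 in wild type (log2 ratio -0.32), a lower value like those of most plastid genes, and its part in them was not tested. All named markers of roots, flowers and pollen lay below the filter. Their summed signals were 100.2 units in BOUNTIFUL and 60.3 in Ws-0 for 3 root markers, 4.95 and 31.2 for 2 pollen markers, and 1.10 and 2.36 for the floral gene UFO. Most of the root sum in BOUNTIFUL came from PYK10, at 56.5 units against 13.6.

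As a group, plastid transcripts had slightly lower signals in BOUNTIFUL on the deposited scale, and the complexes did not move alike. By median, genes of photosystem II lay lowest, genes of the plastid RNA polymerase and of the ribosome lay highest, and the other photosynthetic complexes lay between them. Of the 69 genes, 49 (71.0%) had a log2 ratio below 0, against 55.1% of all probe sets above the filter. The median over the 69 genes was -0.21 (range -1.11 to 0.65), against -0.06 over all probe sets above the filter. At least 2-fold lower signals were recorded for 2 plastid genes, psaA and rbcL, where 3.98% of all probe sets above the filter were as low, and for none was the signal 2-fold higher, where the background is 4.63%. The count of 2 of 69 is near the background share and is no result about plastid genes. At a 1.5-fold limit, chosen after the values were seen, 5 genes were lower (background 13.3%) and 2 were higher (background 11.5%). The spread over plastid genes (SD 0.34) was smaller than that over all probe sets (SD 0.62). In leaf RNA, fewer chloroplasts or green cells and less transcript per chloroplast cannot be told apart.

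**Figure D1:**
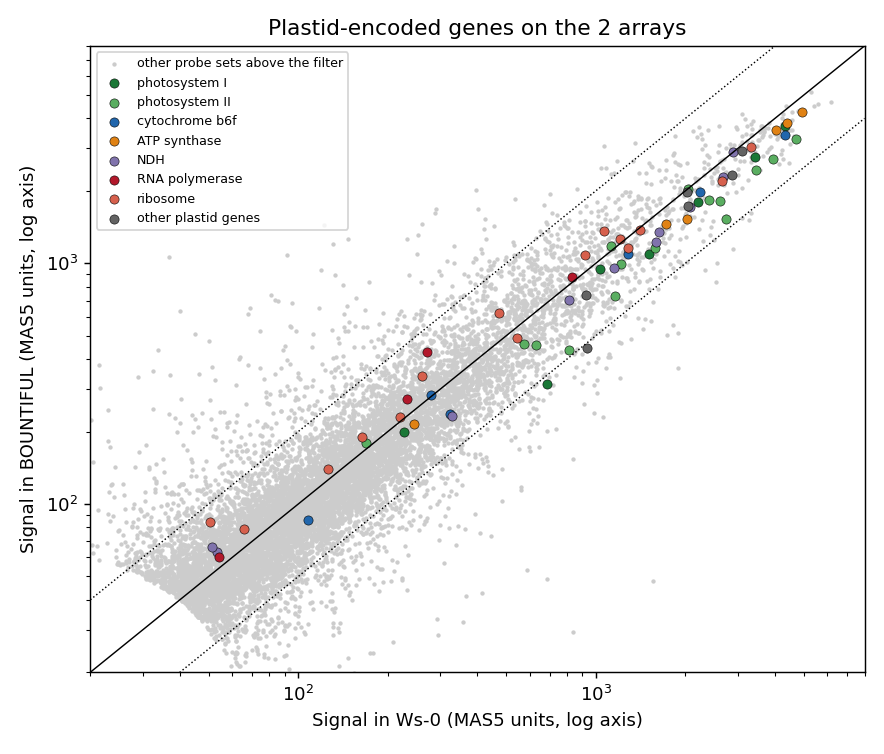
Signal of each plastid gene in BOUNTIFUL (y axis) against Ws-0 (x axis), in MAS5 units on log axes, coloured by complex, over the other probe sets above the filter (grey, those under 20 units on an axis not drawn). The solid line marks equal signal and the dotted lines a 2-fold difference without pseudocount; psaA and rbcL are the 2 plastid genes beyond it.

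Photosystem I, which passes electrons to ferredoxin, was represented by 5 plastid-encoded subunits and by 2 assembly factors, Ycf3 and Ycf4. All 7 genes had lower signals in BOUNTIFUL on the deposited scale, and their median log2 ratio was -0.30. The share of all probe sets above the filter below 0 was 55.1% on that scale. This share also applies to such counts for the complexes and operons that follow. With the newer spikes made equal 2 of the 7 were below 0, where 27.5% of all probe sets above the filter were. With the older ones 1 was, where 16.8% of all were, so both counts are near the background. The gene for the reaction centre protein PsaA (probe set 245007_at) gave 314 units in the BOUNTIFUL sample and 686 in Ws-0. This log2 ratio of -1.11, a 2.15-fold difference, was the lowest of all 69 plastid genes. The gene for its partner in the reaction centre heterodimer, psaB (245006_at), had 3722 units against 4316 (log2 ratio -0.21). Both belong to the operon psaA-psaB-rps14, so 3 probe sets along transcripts of 1 operon gave unequal ratios. The third gene, rps14, which encodes a ribosomal protein, had 78.8 units against 65.8 (log2 ratio 0.23). Between psaA and rps14, the lowest and the highest of the operon, the log2 ratios differed by 1.34 in size. The remaining log2 ratios were -0.46 for ycf4, -0.31 for psaJ, -0.30 for psaI, -0.17 for ycf3 and -0.13 for psaC, the gene of the iron-sulfur subunit on the stromal side.

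Photosystem II, which splits water, had the lowest median of the complexes at -0.46 over 15 genes, 13 of them below 0 and none at least 2-fold lower. The gene psbD (245002_at), for the reaction centre protein D2, gave 437 units in the BOUNTIFUL sample and 810 in Ws-0 (log2 ratio -0.88), a 1.84-fold difference. The gene psbA (245047_at), for D1, the reaction centre protein that is replaced after light damage, had 2452 units against 3465 (log2 ratio -0.50). D1 and D2 form the core, to which the inner antenna proteins CP47 and CP43 bind. The CP47 gene psbB (244972_at) had 729 units against 1162 (log2 ratio -0.67). The CP43 gene psbC (245003_at) had 2710 units against 3955 (log2 ratio -0.54).

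Among the small subunits of photosystem II, psbH (244975_at) stood lowest, with 1530 units against 2734 (log2 ratio -0.83). The genes psbM and psbZ each had a log2 ratio of -0.52 and psbT had -0.45. The genes psbE and psbF, for both chains of cytochrome b559, had -0.46 and -0.39, and their operon neighbours psbL and psbJ had -0.31 and -0.30. The remaining 3 genes lay near 0, with psbK at -0.005, psbI at 0.06 and psbN at 0.09. psbK and psbI form 1 operon. psbN lies among the genes of the psbB operon but is read from the opposite DNA strand, and its product is not counted as a structural subunit. It gave 180 units in the BOUNTIFUL sample and 169 in Ws-0, and its log2 ratio differed from that of psbH, on the other strand beside it, by 0.92 in size.

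The psbB operon joins genes of photosystem II and cytochrome b6f, and all 5 of its genes were below 0, with a median of -0.45. Its cytochrome b6f members petB (cytochrome b6) and petD (subunit IV) had log2 ratios of -0.34 and -0.30. The operon psbD-psbC-psbZ had the lowest median of the operons examined, -0.54, with its 3 genes between -0.88 and -0.52.

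Cytochrome b6f, which links the photosystems, had a median log2 ratio of -0.26 over 6 genes, 5 of them below 0. The gene petB gave 3405 units in the BOUNTIFUL sample and 4315 in Ws-0. The gene petG, for a small subunit, was the lowest at -0.44, with 236 units against 322. The gene of cytochrome f, petA, had -0.18, and the small-subunit genes petL and petN had -0.23 and 0.02. The petL operon, which also holds petG, psaJ, rpl33 and rps18, had all 5 genes below 0, between -0.44 and -0.15.

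The 6 genes of the chloroplast ATP synthase lay closest together, between -0.40 and -0.17 with a median of -0.20. The gene atpB, for the catalytic beta subunit, gave 4259 units in the BOUNTIFUL sample and 4934 in Ws-0 (log2 ratio -0.21). The gene atpE, for the epsilon subunit in the same operon, had 3845 units against 4396 (log2 ratio -0.19). These neighbours differed by 0.019 in size. In the other ATP synthase operon, atpH, for the subunit of the membrane ring, had -0.40, atpF -0.23, atpI -0.18 and atpA (alpha subunit) -0.17, while the ribosomal gene rps2 at its start had -0.04.

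The NDH complex, which returns electrons from ferredoxin to plastoquinone around photosystem I, had a median of -0.24 over 10 genes, with 7 below 0 and 3 above. The 3 genes of the ndhC operon, ndhC, ndhK and ndhJ, had log2 ratios of -0.27, -0.26 and -0.27, a range of 0.0078. The operon from ndhD to rps15 was far less even, from -0.49 for ndhG to 0.33 for ndhH. The gene ndhG gave 232 units in the BOUNTIFUL sample and 328 in Ws-0. The gene ndhH had 66.6 units against 51.3, and ndhF, outside that operon, had 63.3 against 53.2 (log2 ratio 0.22). The others were ndhA at -0.38, ndhD at -0.22, ndhE at -0.20 and ndhI at 0.0007.

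All 4 genes of the plastid-encoded RNA polymerase had log2 ratios above 0, where 44.9% of all probe sets above the filter did, and their median was 0.18. The gene rpoA (244978_at), for the alpha subunit, gave 430 units in the BOUNTIFUL sample and 272 in Ws-0 (log2 ratio 0.65), a 1.57-fold difference. The genes of the rpoB operon differed less. They were rpoC2 at 0.23, with 274 units against 233, rpoB at 0.14, with 60.2 against 54.1, and rpoC1 at 0.07, with 875 against 832.

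The plastid-encoded ribosomal protein genes had a median log2 ratio of 0.14 over 15 genes, 10 above 0 and 5 below. The cluster that runs from rps19 to rpoA held 6 of them, all above 0, with a median of 0.36, and the 9 elsewhere had a median of -0.04 with 4 above 0. The sets overlapped, from 0.07 to 0.65 inside the cluster and from -0.27 to 0.23 outside it. The gene rpl36 (244980_at) had the highest log2 ratio of the 69 genes, 0.65, with 83.9 units in BOUNTIFUL and 50.6 in Ws-0. The gene rpl22 had 623 units against 471 (log2 ratio 0.40), and rpl14 had 341 against 260 (log2 ratio 0.38). The remaining ribosomal genes of the cluster were rps19 at 0.34, with 1357 units against 1068, rpl16 at 0.23 and rps3 at 0.07. With rpoA, all 7 measured genes of the cluster were above 0, and they are consecutive members in gene order.

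Outside the cluster, log2 ratios of ribosomal genes were 0.23 for rps14, 0.20 for rps16, 0.14 for rps15, 0.06 for rpl20, -0.04 for rps2, -0.13 for rps4, -0.15 for rps18, -0.15 for rpl32 and -0.27 for rpl33. The lowest of these, rpl33, lies in the petL operon beside photosynthesis genes and gave 2191 units in BOUNTIFUL against 2648 in wild type.

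**Figure D2:**
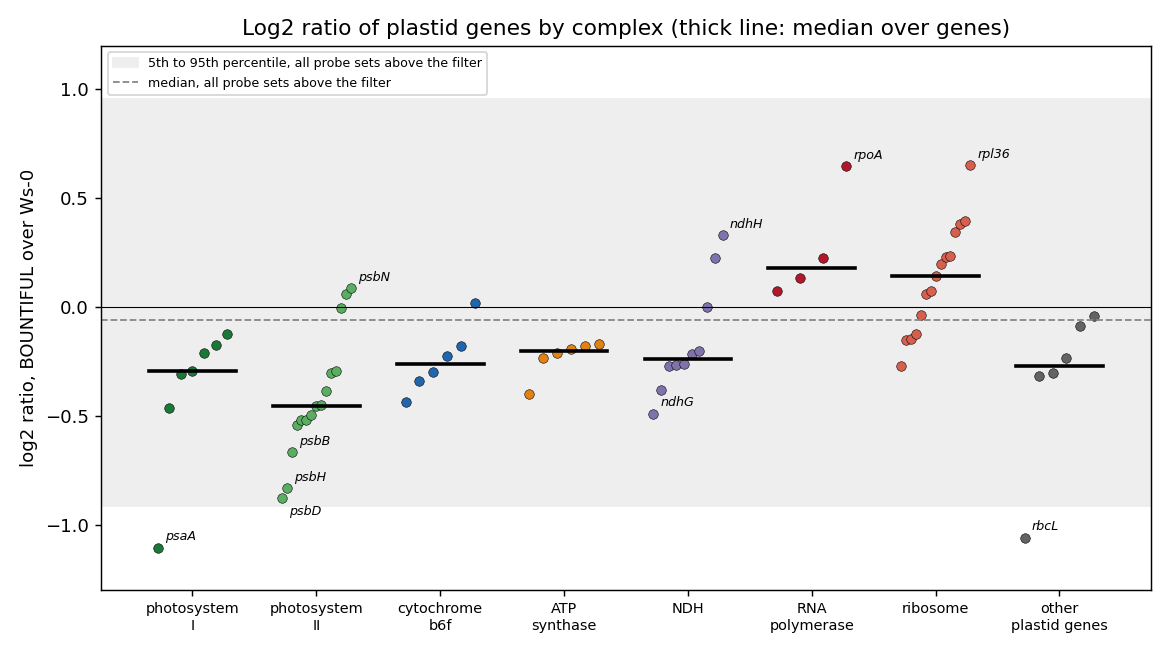
Log2 ratio (BOUNTIFUL over Ws-0, y axis) of each plastid gene, grouped by complex on the x axis, with the median over genes as a thick line. The grey band is the range from the 5th to the 95th percentile of all probe sets above the filter; psaA and rbcL lie below it, photosystem II has the lowest median (-0.46) and the RNA polymerase the highest (0.18).

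Other plastid genes were all below 0, with a median of -0.27 over 6. The gene rbcL (245015_at), for the large subunit of the carbon-fixing enzyme Rubisco, gave 444 units in the BOUNTIFUL sample and 934 in Ws-0 (log2 ratio -1.06), a 2.09-fold difference. Its neighbour in gene order, accD, for a subunit of the acetyl-CoA carboxylase of fatty acid synthesis, had 741 units against 923 (log2 ratio -0.32). The others were clpP, a protease subunit, at -0.31, cemA, an envelope membrane protein, at -0.24, ccsA, needed to attach haem to c-type cytochromes, at -0.09, and the intron maturase matK at -0.04.

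**Figure D3:**
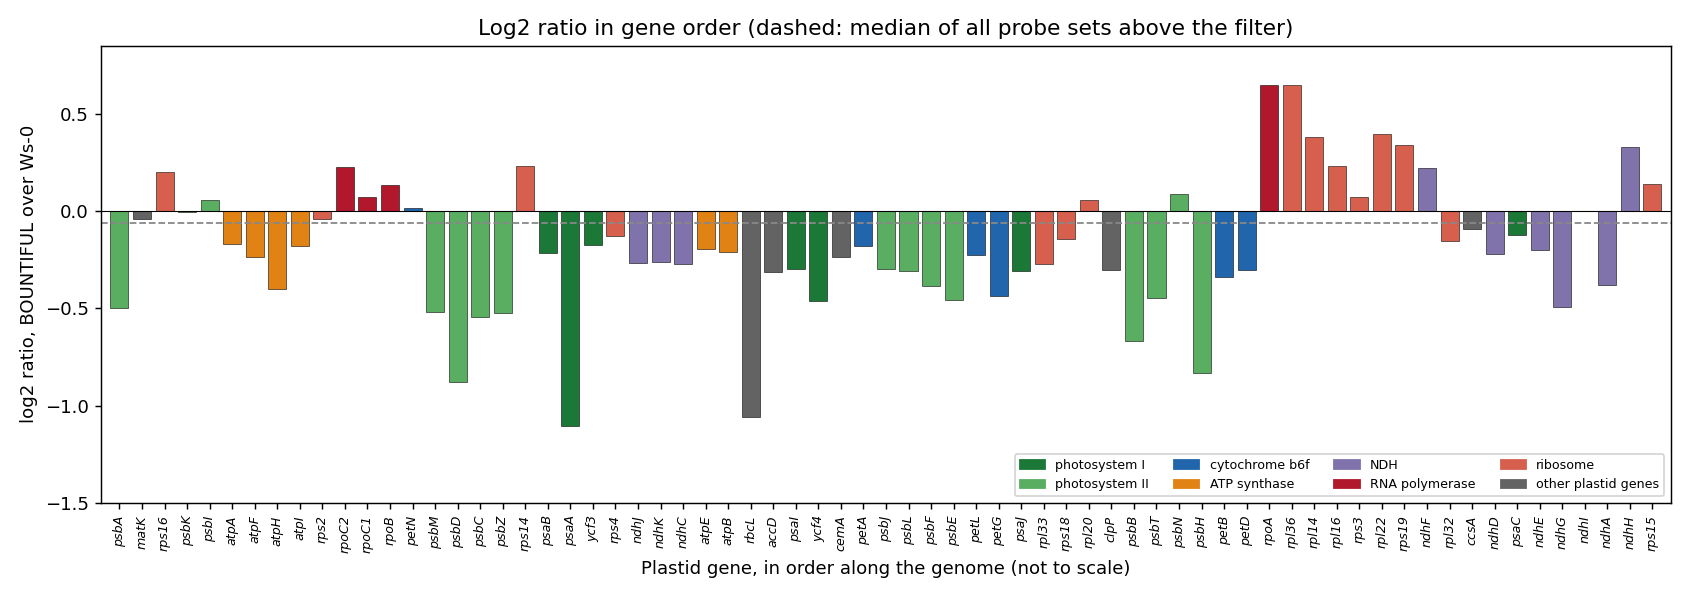
Log2 ratio (BOUNTIFUL over Ws-0, bars) of the 69 plastid genes in their order along the plastid genome, not to scale, coloured by complex, with the median of all probe sets above the filter dashed. Bars of the operon ndhJ-ndhK-ndhC have similar heights, the run from rpoA to rps19 lies above 0, and psaA, rbcL, psbD and psbH reach lowest.

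Genes were also compared by the polymerase that reads them, using lists of well-known cases that were chosen with earlier results of these data known. All 13 genes listed for the plastid-encoded polymerase were below 0 on the deposited scale, with a median of -0.50, while 10 of them were below 0 under the newer-spike scaling and 6 under the older-spike one. The shares of all probe sets above the filter that were below 0 were 55.1%, 27.5% and 16.8% in the same order. Of the genes listed for the nuclear-encoded polymerase alone, rpoB, rpoC1 and rpoC2 were above 0 and accD below, a median of 0.10 over 4. The first median was lower than the second by 0.60 on the log2 scale, and by 0.57 to 0.61 over the deposited scale and the 10 other scalings, pseudocounts and filters. Several of these 10 could not alter this difference, since median centring shifts all genes alike and all members passed the filter. The spike scalings could alter it little. The lists share no gene, but the genes within each lie in few operons and are not independent. Plastid genes left off the list for the plastid-encoded polymerase lay on both sides of 0. Among them were rps14 of the psaA operon (0.23), psbN (0.09), psaC (-0.13) and atpA (-0.17). The counts and the difference of medians therefore depend on which genes were listed.

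The scaling set the sign of many of these values. In all 6 scalings photosystem II had the lowest and the RNA polymerase the highest median of the complexes. Median centring and the spike scalings move all log2 ratios by nearly the same amount, so they could hardly change this order. Quantile normalisation and loess could change it, and kept the lowest and the highest place. With equal newer spikes, 17 of the 69 genes (24.6%) were below 0, against 27.5% of all probe sets above the filter. With the older spikes 6 (8.70%) were, against 16.8%. The plastid share below 0 was thus smaller than that of all probe sets under both spike scalings, unlike on the deposited scale. These scalings move all values nearly alike, and plastid genes spread less (SD 0.34 against 0.63 under both). The switch in shares is therefore no change in the level of plastid genes relative to other probe sets. The plastid medians, 0.14 and 0.33, were still below those of all probe sets, 0.27 and 0.45. Neither psaA nor rbcL was then 2-fold lower, where the background was 1.78% (newer spikes) and 1.15% (older spikes), and rpoA and rpl36 were 2-fold higher with the older spikes, where it was 14.6%. psaA had log2 ratios of -0.76 and -0.57, and rbcL -0.71 and -0.52, under the newer and older spike scalings. The median of photosystem II became -0.10 and 0.09, and the medians of photosystem I, cytochrome b6f, ATP synthase and NDH turned positive under both. Relative to the median of all probe sets in the same scaling, the median of photosystem II lay at -0.46 to -0.36 over the 6 scalings and that of photosystem I at -0.26 to -0.20. The RNA polymerase lay at 0.23 to 0.24 and the ribosomal genes at 0.20 to 0.22. The median of photosystem II minus that of the ribosomal genes was -0.60 as deposited and -0.67 to -0.53 over the deposited scale and the 10 other scalings, pseudocounts and filters. Of these 10, median centring, dropping the filter and leaving out probe sets with an _s_at or _x_at suffix could not alter the difference. Centring shifts all genes alike, all 69 members passed the filter, and none has such a suffix. The spike scalings shift all genes nearly alike and could alter it little.

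**Figure D4:**
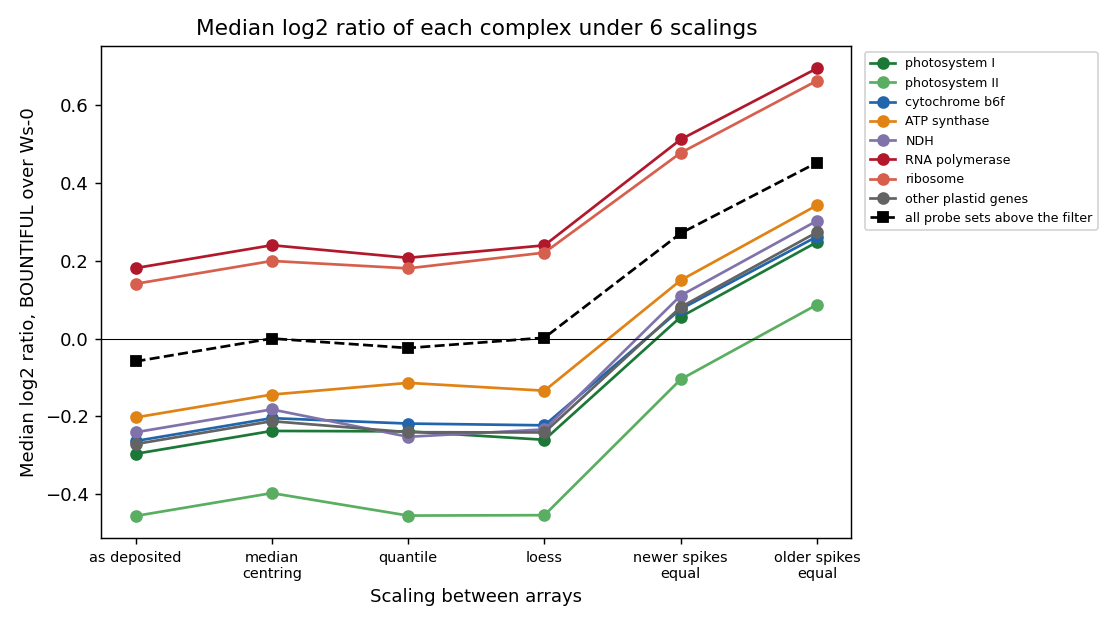
Median log2 ratio (BOUNTIFUL over Ws-0, y axis) of each complex under 6 ways of scaling the arrays (x axis), with the median of all probe sets above the filter as black squares. All lines shift upward under the spike scalings, where only photosystem II with the newer spikes is below 0. RNA polymerase and ribosomal genes lie above the black squares and the photosynthetic complexes below them in all 6. Median centring and the spike scalings move every line by nearly the same amount.

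Signal level moved with the log2 ratio. The 16 members with mean signals from 50 to 300 units had a median of 0.11. The 14 from 300 to 1000 units had -0.25, and the 39 of at least 1000 units had -0.24. Other probe sets in these ranges had medians of -0.07, 0.01 and -0.01. Below 0 were 5, 10 and 34 members (31.25%, 71.4% and 87.2%), against 56.6%, 49.5% and 50.3% of the other probe sets. Across the 69 genes the Spearman correlation of mean signal with log2 ratio was -0.39, and within complexes it was -0.60 over the 15 ribosomal genes, -0.38 over the 15 of photosystem II and -0.24 over the 10 of NDH. Across 9430 other probe sets in the range of member signals it was 0.06. The genes share their pair of arrays and many share transcripts. With members of at least 1000 units alone, a choice made after the values were seen, photosystem II had a median of -0.48 over 10 genes and the ribosomal genes -0.04 over 7, a difference of -0.44. No RNA polymerase gene reached 1000 units, so the complex with the highest median could not be compared at that limit. The part of signal level in the smaller differences was not tested.

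Nuclear genes of the same complexes and of plastid gene expression had been listed as well, 94 in 11 lists, but only 12 were named on the array and 11 of these were above the filter, so most of these lists cannot be read here. None was 2-fold different, where 3.98% of all probe sets above the filter were 2-fold lower and 4.63% 2-fold higher. Above 0 were 5 and below 0 were 6, against 44.9% and 55.1% of all. These counts are near the background, and each complex has only 1 to 3 measured nuclear genes. Both measured nuclear subunit genes of photosystem I were higher in BOUNTIFUL, unlike the plastid-encoded ones. PSAN had 2621 units against 1514 (log2 ratio 0.79), and PSAE-1 had 3700 against 2219 (log2 ratio 0.74). Of photosystem II, PSBW and PSBY had 0.09 and 0.08. The 3 nuclear NDH genes were below 0 like most of their plastid-encoded partners, with NDHS at -0.33, NDHN at -0.30 and NDHL at -0.14. PETM of cytochrome b6f had -0.09 and ATPC1, the ATP synthase gamma subunit, -0.12. CRP1 (AT5G42310), which in maize is needed for expression of petA and petD, gave 226 units in the BOUNTIFUL sample and 420 in Ws-0 (log2 ratio -0.87), while the RNA-binding protein gene CP29B had 0.12. The phage-type polymerase gene RPOTMP lay below the filter, at 11.7 and 7.45 units. No sigma factor, polymerase-associated protein, Rubisco small subunit or nuclear plastid ribosomal protein on the lists had a named probe set.

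Transcripts of the other organelle were read through the symbols of the platform annotation, since their IDs were not found in the gene table. Of 23 mitochondrial probe sets, 5 were above the filter, and the median of their log2 ratios was -0.36. The brightest, ccb382, lay at 0.06, with 407 units (BOUNTIFUL) against 391 (Ws-0). Below 0 were 4 of the 5, against 55.1% of all probe sets above the filter, and 5 are too few to read. Signals of these 4 were low, from 52.4 to 154 units over both arrays. The probe sets of orfX and ccb452, both among the 4, have an _s_at suffix. Among those 4, cox1, for a subunit of cytochrome c oxidase, gave 112 units in the BOUNTIFUL sample and 151 in Ws-0 (log2 ratio -0.41). The gene nad4, of respiratory complex I, had -0.22.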

How the data were processed

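The deposited values are intensity signals on a linear scale, 1 per probe set of an Affymetrix array, which the authors computed using MAS5 (per the submitters' processing notes; version not given in the sources used here). After trimming 2% from either end, the mean was 100.0 for each array, which shows a common scaling before deposit. Control probe sets (64 of 22810) were left out. The pseudocount, 7.77 units, was the 20th percentile of all signals, and the filter, 39.9 units, the median of the mean signal. Several probe sets per gene did not occur among members. Names come from a platform annotation and the TAIR10.1 gene table, whose start coordinates served only to put the members in order along the plastid genome. Complexes, operons, polymerase classes, nuclear lists and marker lists were written from textbook knowledge. The members and lists were chosen with earlier results of these data known, and the spike scalings too.

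With 1 array per genotype no test, p-value or replicate error was possible, and the number of arrays limits the precision. Named genes were all members and up to 3 measured genes of each nuclear list. Alternatives were 5 further scalings, 2 other pseudocounts, 2 other filters and leaving out probe sets with _s_at or _x_at suffixes. Calculations used Python 3.11.15 with pandas 2.3.3, and loess (span 0.3) used statsmodels 0.14.6. The calculation was tested on simulated data with known folds. Sequences were not used here.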

Additional observations from a re-analysis of the deposited data

How the results depend on the processing

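No paired analysis was possible because there was 1 array per genotype, which also prevents leaving an array out. A median was taken as moved when it changed sign or shifted by more than the SD over its genes, which are not replicates. With the newer spikes set equal, 0 genes were 2-fold lower, and medians were 0.14 for all plastid genes, 0.055 for photosystem I, -0.10 for photosystem II, 0.076 for cytochrome b6f, 0.15 for ATP synthase, 0.11 for NDH, 0.51 for RNA polymerase, 0.48 for the ribosome and 0.081 for other plastid genes. With the older spikes set equal, 0 genes were 2-fold lower and 2 (rpoA and rpl36) 2-fold higher, and medians were 0.33, 0.25, 0.087, 0.26, 0.34, 0.30, 0.69, 0.66 and 0.27 in the same order. These shifts follow from multiplying every BOUNTIFUL signal by 1 factor. Quantile normalisation moved ATP synthase to -0.11, and the cause was not tested. The 8 probe sets for both copies of a gene and the limit of 1000 units were choices made with the data in view. Of those 8, 7 passed the filter, with log2 ratios from -0.82 to 1.23 and a median of 0.18, where the members had -0.21. Below 0 were 3 of the 7, against 55.1% of all probe sets above the filter, and 7 are too few to read. Adding them gave 1 gene 2-fold higher, where the background was 4.63%, and a median of -0.21 over the plastid probe sets. At 1000 units psaA and rbcL drop out, leaving 0 genes 2-fold lower, and the ribosomal median was -0.039 over 7 of 15 genes. Median centring, loess, the other pseudocounts, no filter, the filter at the 75th percentile and leaving out suffixed probe sets moved none of these counts and medians. Dropping the filter and leaving out suffixed probe sets could not move them, since all members passed the filter and none has a suffix.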
